A study of Mus musculus with 6 samples.

Results

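The transcription factor p53 and 9 genes that it is known to switch on directly were followed in tumours of B16F10, a mouse melanoma line, of which 6 were sequenced. The genes were Trp53, which encodes p53, with Mdm2, Mdm4, Ppm1d, Ccng1, Zmat3, Trp53inp1, Phlda3, Eda2r and Aen. They were found by symbol in the mouse GRCm38 annotation, and all 10 were present among the 44679 genes of each library. Of these, 9 had enough reads to be tested among 14776 genes, and Eda2r did not. The list was selected on levels and fold changes of this same comparison, seen in an earlier analysis of these libraries, so the members' fold changes are given as descriptions and support nothing. All were skin tumours grown from B16F10, 3 in mice that received the histone deacetylase inhibitor vorinostat and 3 in mice labelled as having no treatment. The sources used here do not give the dose and timing of vorinostat or the strain, sex and age of the mice. Total RNA came from pellets of tumour cells. The labels do not say that each tumour came from a separate mouse, so the errors below measure the spread between these samples, which may in part be technical.

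In an unstressed cell p53 protein is kept low by the ubiquitin ligase Mdm2 and its partner Mdm4, which bind p53 and lead to its destruction or block its activity. DNA damage and other stress release p53, which then binds a pair of palindromic half-sites in its target genes and raises their transcription. Several targets, Mdm2 among them, act back on p53, and others halt growth, alter splicing or take part in cell death. Much of this control acts on p53 protein, so the level of Trp53 RNA is not a readout of p53 activity. Melanocytes use the pathway in their response to ultraviolet light.

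The sequences below show matches to the p53 half-site near the starts of some of these genes. RefSeq promoter windows of 300 bases, from 250 bases before to 50 after a transcription start (GRCm38.p6), were found for 8 of the 10 genes, all but Zmat3 and Trp53inp1. A match to the 10-base p53 half-site consensus, which reads the same on both strands, lay in the windows of 5 of these 8 genes. The windows of Mdm4, Phlda3 and Eda2r held none. Among all genes with a window, 9.55% had such a match. In each line the half-site is in capitals within its flanks, 5′ to 3′ on the strand of the gene.
Trp53, chr11:69580274-69580303, + strand: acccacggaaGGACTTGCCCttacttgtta
Mdm2, chr10:117710925-117710954, - strand: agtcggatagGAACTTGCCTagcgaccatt
Ppm1d, chr11:85311112-85311141, + strand: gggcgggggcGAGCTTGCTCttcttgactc
Aen, chr7:78895927-78895956, + strand: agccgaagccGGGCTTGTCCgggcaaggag
Ccng1, chr11:40755452-40755481, - strand: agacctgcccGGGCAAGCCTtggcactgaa
The half-sites began 75 bases before the start in Trp53, 186 in Mdm2, 132 in Ppm1d and 185 in Ccng1. In Aen the match lay 121 bases before the start of one window and just after the start of another. In Ccng1 the bases in front of the half-site completed a site of 20 bases with 1 mismatch to the pair of half-sites, at position 5 counted from the 5′ end. Such a site with at most 1 mismatch and no spacer lay in 29 of 32851 windows, 0.0883%. The p21 gene Cdkn1a, the best known p53 target, was another of them.
Cdkn1a, chr17:29090928-29090947, + strand: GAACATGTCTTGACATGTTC
The bases upstream of Ccng1 up to its first annotated exon, chr11:40755312-40755536 on the - strand, are printed with the 20-base site in capitals.
Ccng1 upstream: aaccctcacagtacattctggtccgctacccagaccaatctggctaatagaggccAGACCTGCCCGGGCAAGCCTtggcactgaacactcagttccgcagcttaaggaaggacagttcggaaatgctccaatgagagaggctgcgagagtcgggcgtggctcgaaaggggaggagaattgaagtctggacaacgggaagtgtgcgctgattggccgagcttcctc
A match is a description of these letters and does not show that p53 binds there.

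The 6 libraries held from 11322234 to 28863700 reads assigned to genes, and differed in what filled them. Nuclear protein-coding genes had a share of 30.5%, 45.5% and 10.3% in untreated tumours 1, 2 and 3. The share was 32.0%, 46.4% and 29.1% in vorinostat tumours 1, 2 and 3. These numbers follow only the order of the samples, so tumours of the same number in the 2 groups are not pairs. Untreated tumour 3 stood apart, with 55.9% of its reads in mitochondrial ribosomal RNA. The titles carry a number after the letter G, of unstated meaning, that was 1 for untreated tumours 1 and 2, 2 for untreated tumour 3, 3 for vorinostat tumours 1 and 2 and 4 for vorinostat tumour 3. As no G number occurs in both groups, whatever it marks and the treatment cannot be told apart. Levels are in CPM, estimated counts relative to the size of the library, scaled by TMM, which corrects for such differences in composition. The 8 markers of melanoma cells summed to between 5895 and 7549 CPM in untreated and between 5860 and 8144 CPM in treated tumours, and none was at 0 reads in any library. The 8 leukocyte and macrophage markers summed to between 86.1 and 312 CPM against between 138 and 193 CPM, the 6 T cell markers to between 4.91 and 10.1 against between 6.39 and 10.9 CPM, and the 6 fibroblast markers to between 13.6 and 31.8 against between 8.39 and 15.97 CPM, again with none at 0. Endothelial (5) and keratinocyte (4) markers summed to at most 10.8 and 3.14 CPM, with Tek, Cldn5, Krt14, Krt10 and Krt1 at 0 in some libraries. In such bulk samples fewer cells of a type and less RNA per cell cannot be told apart, and the part of host cells in the values below was not tested.

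Trp53 (ENSMUSG00000059552, chromosome 11 from 69580359 to 69591873) stood at 18.5, 21.8 and 15.03 CPM in untreated tumours, always given in the order 1, 2 and 3, and at 17.5, 20.1 and 14.98 CPM in vorinostat tumours. The groups overlapped almost fully, and the means were 18.4 ± 3.39 CPM and 17.5 ± 2.55 CPM (SD, n = 3 each). The fitted log2 fold change, vorinostat over untreated, was -0.07 with a 95% interval from -0.46 to 0.31. These values rest on between 158 and 485 reads per library. The highest Trp53 level exceeded the lowest 1.46-fold. The sign of the difference was not stable: it was 0.039 without untreated tumour 2 and 0.019 without vorinostat tumour 3. It was -0.21 without untreated tumour 3 and -0.20 without vorinostat tumour 2. On log2(TPM + 1) the difference was 0.33, where the median of all genes was 0.26. On log2(TPM + 0.1) it was -0.10 relative to the median of all genes.

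**Figure D1:**
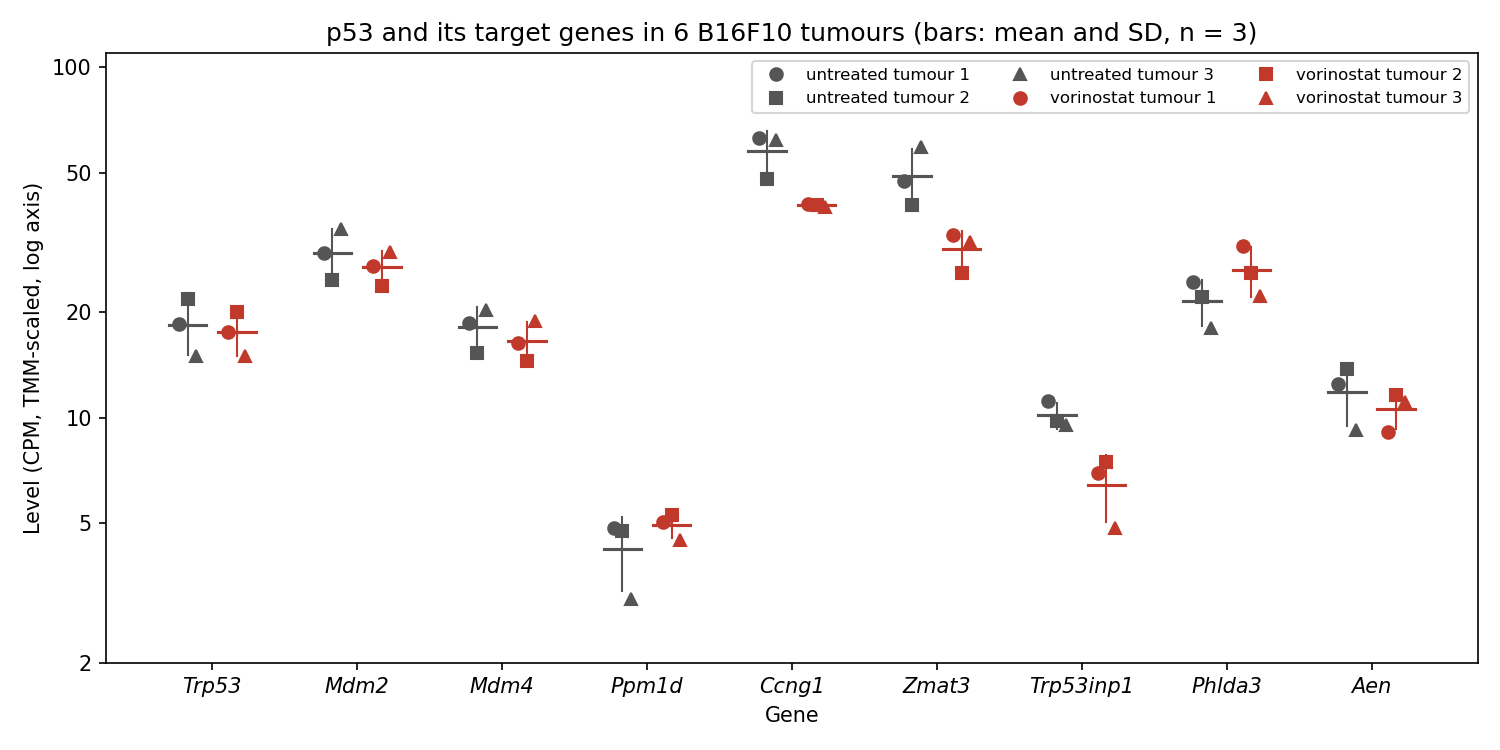
Level of each p53 gene in CPM (log axis) in 3 untreated (grey) and 3 vorinostat (red) tumours, with a point per tumour and bars for mean and SD. The ranges of Ccng1, Zmat3 and Trp53inp1 do not overlap between the groups on this scale, while those of the other 6 genes do; on log2(TPM + 1) the Ccng1 difference turns to 0.0074, where all genes have a median of 0.26.

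Compared per length, in TPM as deposited, Phlda3 was the most abundant of the 10 genes in 5 of 6 tumours, with a median of 13 TPM. Ccng1 followed at 9.06 TPM, Mdm2 at 7.83 TPM and Trp53 at 6.67 TPM. Neighbours among these 4 changed places: Ccng1 lay above Mdm2, and Mdm2 above Trp53, in 4 of 6 tumours each. Mdm4, Zmat3 and Aen formed a lower group at 3.48, 3.19 and 3.14 TPM, and Trp53 lay above Mdm4 in all 6 tumours. Ppm1d and Trp53inp1 stood at 1.12 and 1.09 TPM and changed places in 3 of 6 tumours. Eda2r was last in every tumour at 0.0772 TPM.

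The feedback genes come next. Mdm2 (ENSMUSG00000020184, chromosome 10 from 117688875 to 117710758) encodes the ligase that marks p53 for destruction. It stood at 29.6, 24.7 and 34.6 CPM without treatment and at 27.1, 23.8 and 29.8 CPM with it. In both groups tumour 2 was lowest and tumour 3 highest, and the groups overlapped. The log2 fold change was -0.14 with a 95% interval from -0.50 to 0.22. Mdm4 (ENSMUSG00000054387, chromosome 1 from 132959484 to 133030561), a relative of Mdm2 that masks the activation domain of p53, gave 18.7, 15.3 and 20.4 CPM against 16.3, 14.5 and 18.9 CPM. It ordered the 6 tumours exactly as Mdm2 did. Its log2 fold change was -0.13 (95% interval from -0.49 to 0.23). Leaving out untreated tumour 3 brought Mdm2 to -0.049 and Mdm4 to -0.076, and leaving out vorinostat tumour 2 brought them to -0.083 and -0.066. Without untreated tumour 2 they lay at -0.28 and -0.26, and without vorinostat tumour 3 at -0.22 and -0.23. A processed pseudogene, Gm29257, lies on the opposite strand within Mdm4 and stood at 0.238 CPM.

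Ppm1d (ENSMUSG00000020525, chromosome 11 from 85311244 to 85347066) encodes the phosphatase Wip1, which removes phosphates that activate p53 and the kinases above it. It stood at 4.84, 4.74 and 3.04 CPM in untreated and 5.03, 5.28 and 4.48 CPM in treated tumours. Untreated tumour 3, with 32 reads of Ppm1d, was lowest, and a count of that size carries a counting error of 17.7%. The groups overlapped, and the log2 fold change of 0.22 had a 95% interval from -0.34 to 0.78. Without untreated tumour 3 it was 0.024 and without vorinostat tumour 2 it was 0.14.

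Ccng1 (ENSMUSG00000020326, chromosome 11 from 40748552 to 40755311) encodes cyclin G1, which recruits a phosphatase to Mdm2. It carried the most reads of the 10 genes, between 446 and 1651 per library. It stood at 62.98, 48.2 and 62.1 CPM in untreated and at 40.7, 40.4 and 40.0 CPM in treated tumours. All 3 treated tumours lay within 1 CPM of each other and below all 3 untreated ones, of which tumour 2 was nearest. The log2 fold change was -0.52 (SE 0.16), 1.43-fold higher in untreated tumours. On log2(TPM + 1), however, it was 0.0074, where the median of all genes was 0.26. On log2(TPM + 0.1) it was -0.49 relative to the median of all genes.

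Among the effectors, Zmat3 (ENSMUSG00000027663, chromosome 3 from 32334792 to 32366014) encodes a zinc finger protein that binds RNA and acts on splicing and growth arrest. It stood at 47.3, 40.6 and 59.3 CPM in untreated and at 33.3, 25.8 and 31.7 CPM in treated tumours. The groups did not overlap, and the difference of means exceeded either SD, with 49.1 ± 9.46 CPM against 30.3 ± 3.94 CPM (n = 3 each). The log2 fold change was -0.69 (SE 0.18). On log2(TPM + 1) it was -0.09, which is -0.35 relative to the median of all genes.

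Trp53inp1 (ENSMUSG00000028211, chromosome 4 from 11156431 to 11174379) encodes a nuclear protein that enhances p53 activity and takes part in autophagy. Its levels were 11.2, 9.81 and 9.51 CPM in untreated and 6.97, 7.49 and 4.84 CPM in treated tumours. Again the groups did not overlap, and vorinostat tumour 3, with 54 reads, was lowest. The log2 fold change was -0.65 (SE 0.20), and on log2(TPM + 1) it was -0.35 relative to the median of all genes. Beside these lower levels of Ccng1, Zmat3 and Trp53inp1, the fibroblast markers had a median log2 fold change of -0.86, with 5 of 6 below 0 and edgeR calling 0 of them. Their sum was 22.5, 13.6 and 31.8 CPM without treatment and 8.39, 12.7 and 15.97 CPM with vorinostat. Among the untreated tumours this sum was lowest in tumour 2, as were Zmat3, Ccng1, Mdm2, Mdm4 and the leukocyte and macrophage sum. In that group Trp53inp1 was lowest in tumour 3. Among the treated tumours the fibroblast sum was highest in tumour 3, where Trp53inp1 was lowest. The sum was lowest in tumour 1, where Zmat3 was highest at 33.3 CPM, against 31.7 CPM in tumour 3. Ccng1 gives no order of the treated tumours, at 40.7, 40.4 and 40.0 CPM. Its fewest reads carry a counting error of 4.74%. The part of fibroblasts in the values of these genes was not tested.

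Phlda3 (ENSMUSG00000041801, chromosome 1 from 135766119 to 135769136) encodes a small protein that competes with the kinase Akt for membrane lipids. It stood at 24.4, 22.1 and 18.1 CPM in untreated and at 30.9, 25.9 and 22.3 CPM in treated tumours. The treated tumours were higher on average, and vorinostat tumour 3 lay among the untreated ones. The log2 fold change was 0.29 with a 95% interval from -0.08 to 0.66. It was 0.16 without vorinostat tumour 1 and 0.17 without untreated tumour 3. On log2(TPM + 1) it was 0.73, where the median of all genes was 0.26. Aen (ENSMUSG00000030609, chromosome 7 from 78895854 to 78911209), a nuclease active in apoptosis, stood at 12.5, 13.8 and 9.23 CPM against 9.11, 11.6 and 11.1 CPM, with overlapping groups and a log2 fold change of -0.17 (95% interval from -0.58 to 0.24). Aen lay at -0.34 without untreated tumour 3, at -0.074 and -0.080 without vorinostat tumour 1 and without untreated tumour 2, and at -0.27 without vorinostat tumour 2.

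Eda2r (ENSMUSG00000034457, chromosome X from 97333840 to 97377216), a member of the tumour necrosis factor receptor family, was close to the detection limit. It had 3, 10 and 6 reads in the untreated libraries and 3, 8 and 3 in the treated ones, where 3 reads were taken as the limit. A difference was not detectable at this depth, and no fold is given.

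The question of the design was whether vorinostat changed these genes. In edgeR's quasi-likelihood test across all genes, 0.0% of the 14776 genes were called at an adjusted p of 0.05, and 0 of the 9 members. The members' adjusted p ran from 0.743 to 0.945. At an unadjusted p under 0.05 there were 3 members, against 6.27% of all genes, and DESeq2 and limma-voom also called 0 members, with 0.0744% and 0.0% of all genes called. Group ranges not overlapping and lower in treated tumours were found for 3 of 9 members and for 5.53% of all genes. Ranges not overlapping and higher were found for 0 of 9 members and for 6.53% of all genes. In either direction these were 3 of 9 members and 12.1% of all genes. As the list was chosen with this comparison known, nothing is read from these shares. The members' median log2 fold change was -0.14 and that of all genes was 0.03; on log2(TPM + 1) they were 0.32 and 0.26, and Trp53, Mdm2, Mdm4, Ccng1 and Aen then had values above 0.

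**Figure D2:**
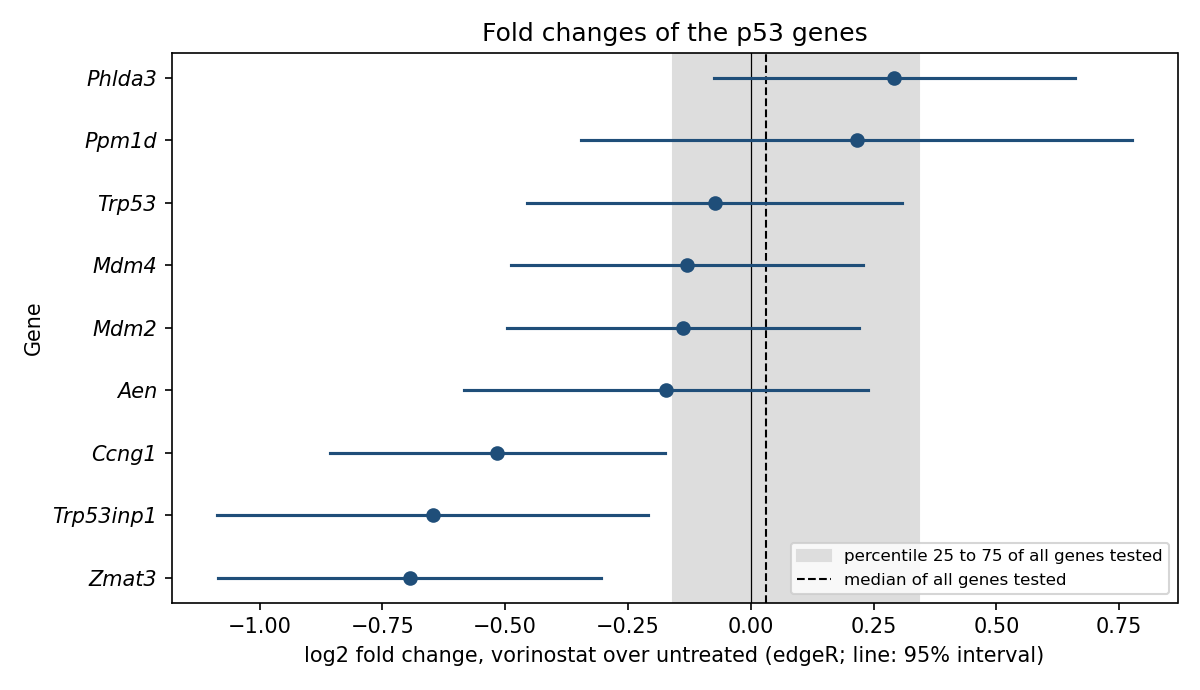
Log2 fold change of each tested p53 gene (points) with its 95% interval (lines) from edgeR on 3 against 3 tumours, the range from percentile 25 to 75 of all 14776 genes tested (grey band) and their median (dashed). Zmat3, Trp53inp1 and Ccng1 lie at -0.69, -0.65 and -0.52 and the other 6 between -0.17 and 0.29. On log2(TPM + 1), not drawn, Trp53, Mdm2, Mdm4, Ccng1 and Aen lie above 0, where the median of all genes is 0.26. Relative to that median Ccng1 lies at -0.26, Aen at -0.14 and each of Trp53, Mdm2 and Mdm4 at 0.06.

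Leaving out libraries moved the values of Zmat3, Ccng1 and Trp53inp1. Without untreated tumour 2, the Zmat3 log2 fold change was -0.84 with an edgeR adjusted p of 0.0479, the one member call in any setting that left out a single library, where 0.736% of all genes were called. Ccng1 and Trp53inp1 then had log2 fold changes of -0.65 and -0.70 and were not called. With both untreated tumour 3 and vorinostat tumour 3 left out, a choice made after the libraries were seen, the log2 fold changes were -0.55 for Zmat3, -0.44 for Ccng1 and -0.52 for Trp53inp1. In that setting Eda2r also passed the filter, and edgeR called 0 of 10 members.

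Within a library the ratio of a target to Trp53 does not depend on the scaling between libraries. The ratio of Trp53inp1 to Trp53 CPM was 0.604, 0.450 and 0.633 without treatment and 0.397, 0.373 and 0.323 with vorinostat. These groups did not overlap. Ppm1d gave 0.262, 0.217 and 0.203 against 0.287, 0.263 and 0.299, and these groups also did not overlap, by a margin smaller than the counting error of Ppm1d. The Zmat3 ratio was 2.56, 1.86 and 3.94 against 1.90, 1.29 and 2.11. That of Ccng1 was 3.40, 2.21 and 4.13 against 2.32, 2.01 and 2.67. For both genes untreated tumour 2, which had the highest Trp53 level, lay within the treated range. The ratios of Mdm2, Mdm4, Phlda3 and Aen overlapped as well, and the same 2 of 8 targets were separated with TPM in place of CPM. Of all other genes tested, 9.02% had a ratio to Trp53 that separated the groups in CPM and 9.58% in TPM. As the ratios use the same values that chose the list, nothing is read from this count.

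**Figure D3:**
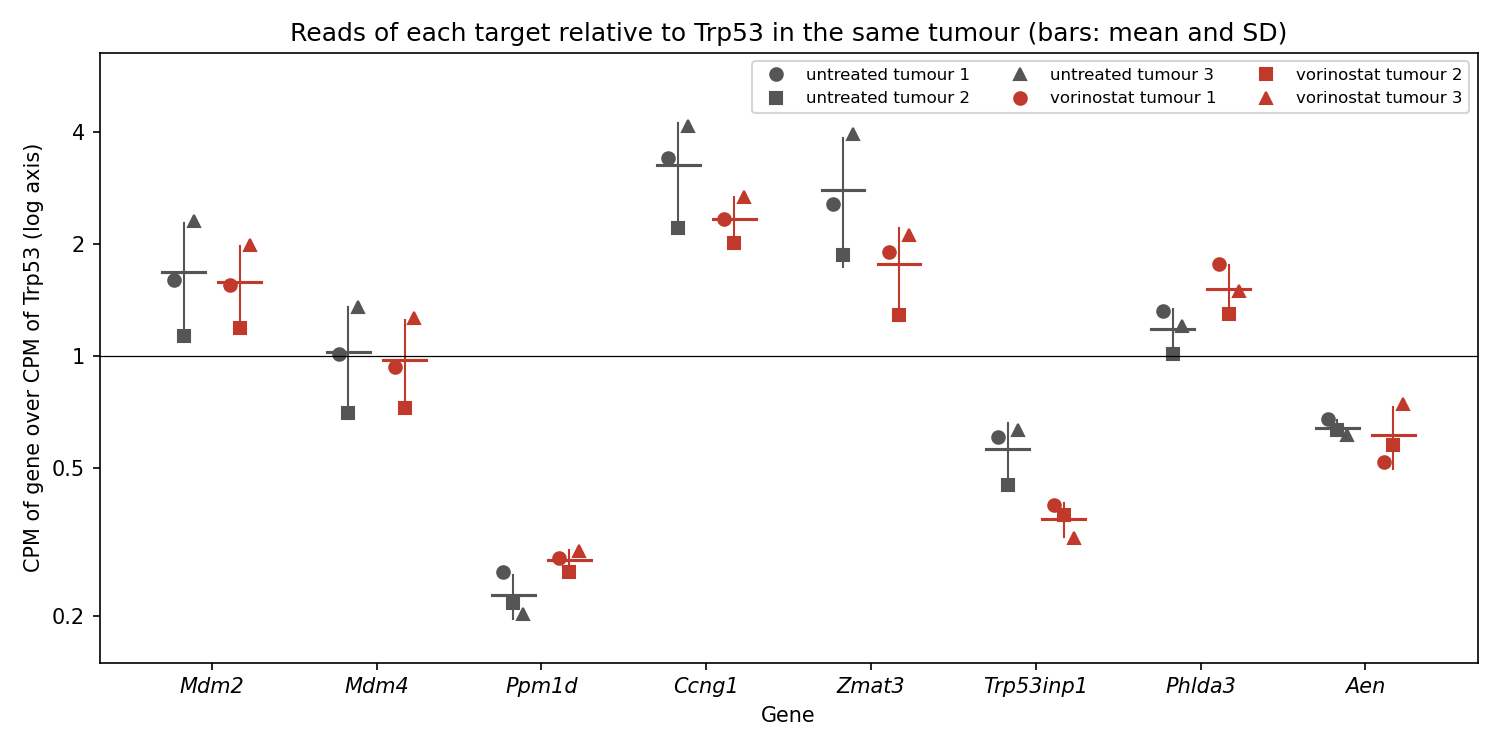
CPM of each target divided by the CPM of Trp53 in the same tumour (log axis), with a point per tumour and bars for the mean and SD of 3 untreated (grey) and 3 vorinostat (red) tumours. Trp53inp1 lies between 0.450 and 0.633 in untreated and between 0.323 and 0.397 in treated tumours, while the groups overlap for Zmat3 and Ccng1.

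The levels of 2 of the 9 members followed the composition of the library in rank. Mdm2 and Mdm4 ordered the 6 tumours exactly in reverse of the share of reads in nuclear protein-coding genes, highest in untreated tumour 3 at a share of 10.3% and lowest in vorinostat tumour 2 at 46.4%. Of all genes tested, 0.399% had that order. It rests on a near tie of vorinostat tumour 3 with untreated tumour 1. These stood at 29.8 and 29.6 CPM for Mdm2 and at 18.9 and 18.7 CPM for Mdm4. The fewest reads of the 2 genes carry counting errors of 5.49% and 6.88%. Trp53 was highest in tumour 2 of both groups, where that share was highest. Zmat3 and Ccng1 were lowest in tumour 2 among the untreated tumours. The libraries form separate clusters by that share, so no correlation is given, and the order was noticed after the values were seen. With the share as a covariate, also added after seeing the data, the log2 fold changes were -0.57 for Zmat3, -0.46 for Ccng1, -0.69 for Trp53inp1, -0.03 for Mdm2 and -0.04 for Mdm4. In the same fit they were -0.17 for Trp53, -0.26 for Aen, 0.12 for Ppm1d and 0.25 for Phlda3, and edgeR called 0 of 9 members.

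**Figure D4:**
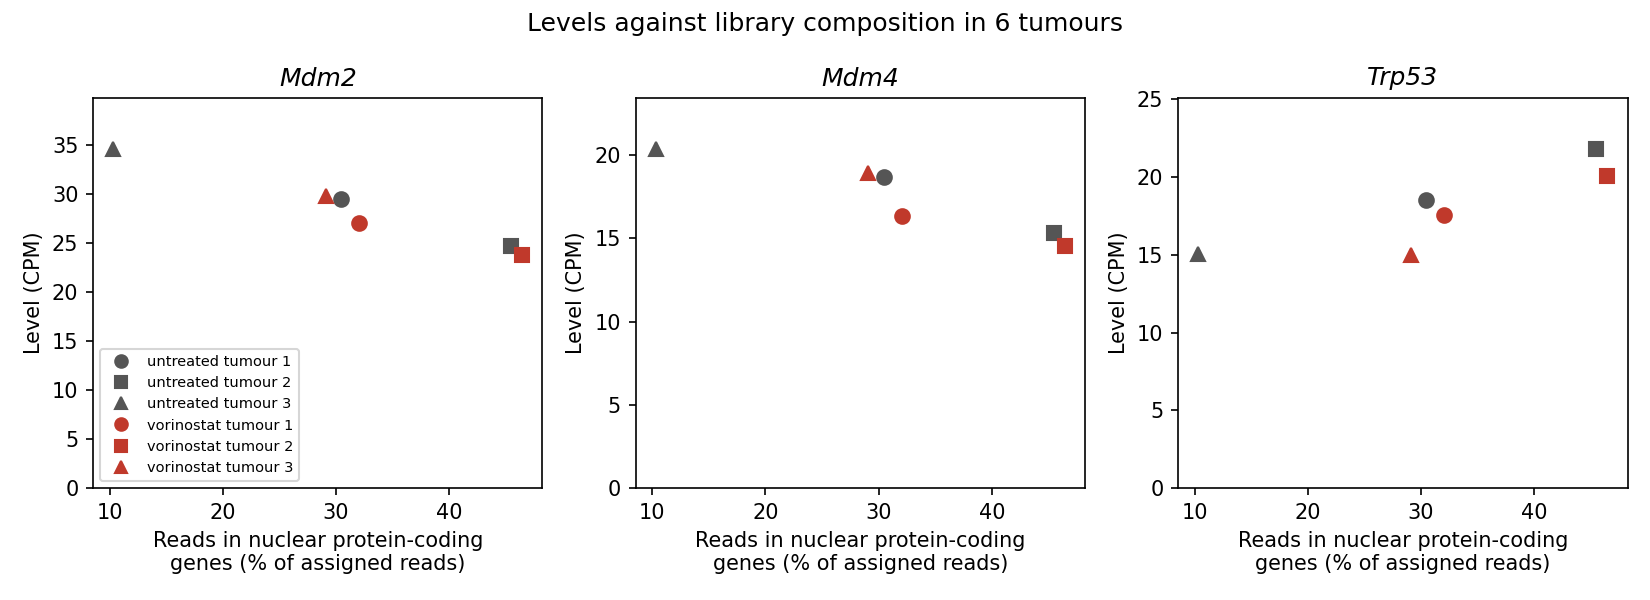
Level of Mdm2, Mdm4 and Trp53 (CPM) against the share of assigned reads in nuclear protein-coding genes (%), with a point for each of 3 untreated (grey) and 3 vorinostat (red) tumours. Mdm2 goes from 34.6 CPM at a share of 10.3% to 23.8 CPM at 46.4%, and untreated and treated tumours follow the same order.

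Salmon also gives each gene a transcript length averaged over its transcripts by their abundance, a readout of the isoform mixture that was not used to choose the genes. For Ccng1 and Phlda3 this length was the same in every tumour, 3512 and 1435 bases, the longest annotated transcript of each. The length of the other 7 genes tested varied, and for 0 of 7 did the group ranges separate, against 9.37% of the 9996 tested genes whose length varied. With the effective length these were also 0 of 7 and 9.01%. Ppm1d was at its longest annotated transcript, 2899 bases, in 2 of 6 tumours. Mdm4, with 14 annotated transcripts, varied most between tumours, at 3123, 2610 and 3601 bases in untreated and 3162, 2654 and 3102 bases in treated tumours. Tumour 2 had the shortest Mdm4 mixture in both groups. Zmat3 averaged 7449 ± 170 bases in untreated and 7120 ± 379 bases in treated tumours (SD, n = 3 each; exact permutation p = 0.3, two-sided, 1 after Benjamini-Hochberg adjustment over the 9996 genes). Trp53 averaged 1800 ± 19.6 against 1851 ± 66.0 bases (exact permutation p = 0.3, adjusted 1). The smallest p that 3 against 3 tumours allow is 0.1, so this test could not reach 0.05.

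The wider pathway was read from a list of 29 other p53 targets, of which 27 were tested and edgeR called 0 higher and 0 lower. Their median log2 fold change was 0.00, with 13 above and 14 below 0, beside 0.03 for all genes. Cdkn1a, the inhibitor of cyclin-dependent kinases that arrests the cell cycle, stood at 48.1, 52.1 and 39.2 CPM in untreated and 53.9, 43.7 and 44.2 CPM in treated tumours. These groups overlapped, with a log2 fold change of 0.03 (95% interval from -0.34 to 0.39). The 3 targets with the highest fold changes were Bbc3, Pidd1 and Plk3. Bbc3, which encodes the killer protein Puma, stood at 2.37, 2.79 and 2.00 against 4.24, 3.26 and 5.38 CPM, and its groups did not overlap. This held for 1 of the 27 tested targets, below the 12.1% of all genes. Its difference was 0.83 on the log2 scale with an SE of 0.32 (edgeR adjusted p 0.743). Pidd1, a scaffold for caspase activation, had a log2 fold change of 0.79 (SE 0.42), and Plk3, a stress kinase, one of 0.64 (SE 0.34).

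The 3 targets with the lowest fold changes were Btg2, Pmaip1 and Ei24. Btg2, an antiproliferative gene that promotes the decay of messenger RNA, stood at 8.47, 6.91 and 11.5 CPM in untreated and 7.09, 4.14 and 3.86 CPM in treated tumours. Vorinostat tumour 1 lay within the untreated range, and the difference was -0.80 on the log2 scale with an SE of 0.28 (edgeR adjusted p 0.743). Pmaip1, which encodes the killer protein Noxa, had between 5 and 44 reads per library, and its log2 fold change of -0.61 had the wide 95% interval from -2.38 to 1.17. Ei24, a membrane protein linked to autophagy, stood at 36.1, 28.05 and 49.8 CPM against 31.4, 25.5 and 27.1 CPM, with a log2 fold change of -0.44 (SE 0.20). Fas and Perp did not pass the filter on low counts, with at most 5 reads per library.

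**Figure D5:**
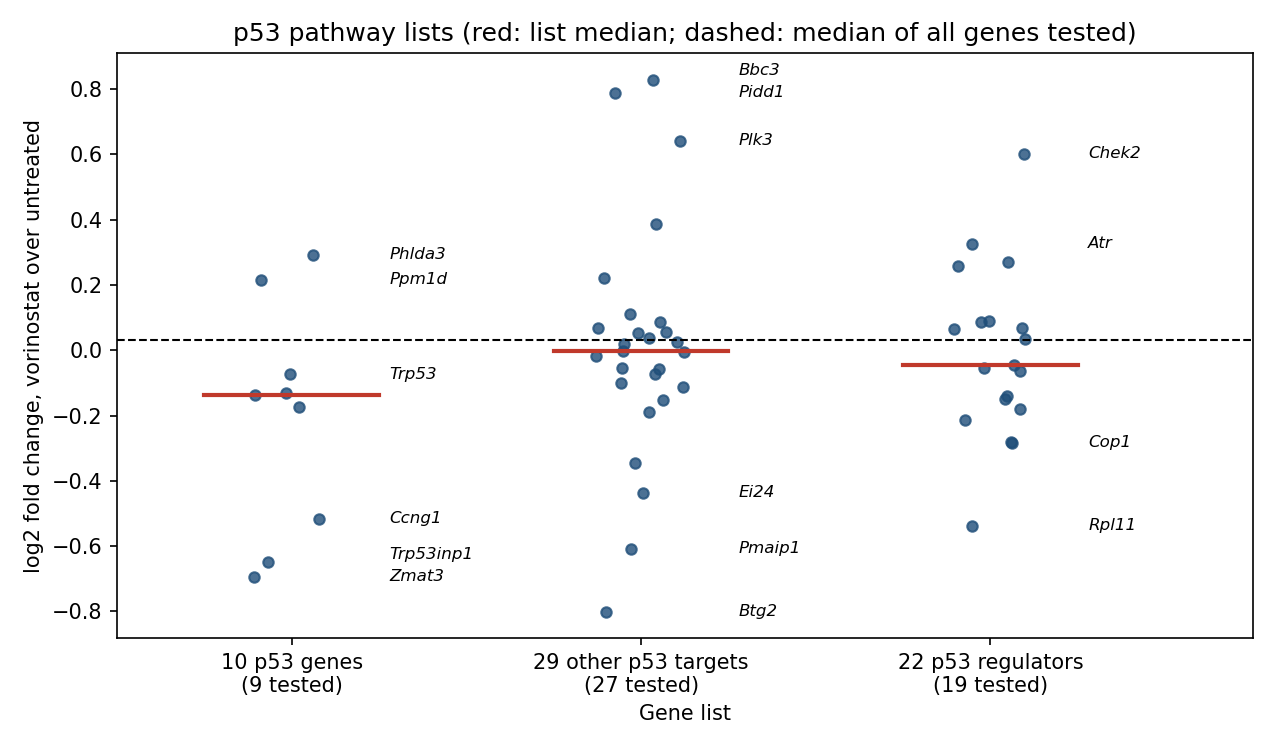
Log2 fold change (vorinostat over untreated, edgeR) of each tested gene of the p53 genes, of other p53 targets and of p53 regulators, with list medians in red and the median of all genes dashed. The medians are -0.14, 0.00 and -0.04, and 0 genes of the lists passed an adjusted p of 0.05.

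Genes that act on p53, or belong to its family, made up a list of 22, of which 19 were tested and edgeR called 0 higher and 0 lower. The median log2 fold change was -0.04. Chek2, a kinase that phosphorylates p53 after DNA breaks, stood at 2.86, 3.18 and 3.04 CPM in untreated and 4.12, 5.74 and 3.86 CPM in treated tumours. Its groups did not overlap, as was so for 1 of 19 genes of the list against 12.1% of all genes, and the log2 fold change was 0.60 (SE 0.28, edgeR adjusted p 0.743). Atr, the kinase of the replication stress response, had a log2 fold change of 0.33 (SE 0.18). The lowest values were those of Rpl11, a ribosomal protein that can bind Mdm2, at -0.54 (SE 0.28), and Cop1, another ligase of p53, at -0.28 (SE 0.16). Cdkn2a, whose Arf product holds Mdm2 in check, had 4 reads in untreated tumour 1 and 0 in the other 5 libraries, where 3 reads correspond to between 0.119 and 0.285 CPM. The relatives Trp63 and Trp73 had between 2 and 25 reads per library and were not tested.

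Likeness to Ccng1 and Trp53inp1 was measured as the root mean square difference of centred log2 CPM over the 6 tumours, among 8108 genes with a mean of 5 CPM or more. Nearest to Ccng1 were Itga1, an integrin chain, at 0.0503, Trpm7, an ion channel with a kinase domain, at 0.0515, and Fam172a at 0.0644. Among the p53 genes Zmat3 was nearest to Ccng1, at 0.175 and rank 472, with Mdm2 next at 0.222. Nearest to Trp53inp1 were Dcaf10 at 0.116, Dusp1, a phosphatase of MAP kinases, at 0.121, and Lrif1 at 0.130, with Ccng1 at 0.240 and rank 188.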

How the data were processed

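Total RNA of 3 untreated and 3 vorinostat B16F10 tumours was measured. Per the submitters' processing notes, the tools were FastQC, Trim Galore and Salmon and the build GRCm38. The labels name a stranded library type; the sources used here give no versions, annotation or strand setting. The estimated counts deposited by the authors were rounded to whole numbers. The TPM values deposited by the authors served for comparing levels between genes and in alternatives. The deposited length columns, per the file headers transcript lengths in bases, were read as a signal that is never negative.

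Symbols came from GENCODE M21, in which 44118 of 44679 identifiers were found. The main test was edgeR 4.0.16 (R 4.3.3) with TMM, filterByExpr by group, the quasi-likelihood test, two-sided, and Benjamini-Hochberg adjustment over 14776 genes at 0.05. Limma 3.58.1 and DESeq2 1.42.0 gave alternatives. Intervals are 95%, with standard errors taken from each F statistic. The members and lists were chosen with earlier results of these data known. Named were all members, Cdkn1a with the 3 highest and 3 lowest other targets, Cdkn2a with the 2 highest and 2 lowest regulators, and the 3 genes most like Ccng1 and Trp53inp1. On counts simulated for this comparison over 14776 genes, of which 13650 were tested, 41% of 100 genes changed 2-fold were recovered. Of 100 genes changed 4-fold 78% were recovered, with 5 false calls. The counts were drawn from the mean level of each gene, without the differences in composition between the libraries. The largest difference of a tested member, 1.62-fold for Zmat3, was below the changes simulated, so these rates do not cover the members. Detection was set at 3 reads, and limits cover counting error only.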

Additional observations from a re-analysis of the deposited data

How the results depend on the processing

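No paired analysis was possible because the replicate numbers 1 to 3 follow only the order of the samples, and of the numbers after the letter N in the titles (1, 6 and 3 against 1, 5 and 4) the groups share 1, where a pairing needs at least 2. The count of genes called was 0 in the main test, 156 with no filter, 11 with DESeq2, 39 on log2(TPM + 1) and 52 on log2(TPM + 0.1), and between 0 and 121 with a library left out, the highest without untreated tumour 2 and 1 without untreated tumour 3. The count of members called was 0 in the main test and in every other setting but 1, without untreated tumour 2, where Zmat3 was called (-0.84, edgeR adjusted p 0.0479), so it ran between 0 and 1. Other p53 targets and p53 regulators had 0 calls in all settings. The members' median log2 fold change was -0.14, and -0.073 with upper-quartile scaling, -0.22 with no filter, 0.32 on log2(TPM + 1) with and without a filter and 0.37 on log2(TPM + 0.1); with a library left out it ran from -0.26 to -0.13. On log2(TPM + 1), log2(TPM + 0.1) and log2(TPM + 1) with no filter the median of all genes was 0.26, 0.51 and 0.14, against 0.22 with counts and no filter. Log2 fold changes on log2(TPM + 1), with or without a filter, were 0.33 for Trp53, 0.32 for Mdm2 and 0.32 for Mdm4. There Ccng1 lay at 0.0074 and Aen at 0.12. On log2(TPM + 0.1) these 5 genes lay at 0.41, 0.37, 0.44, 0.018 and 0.21 in that order. Each value was of the opposite sign to the main one. Relative to the median of all genes, the values on log2(TPM + 0.1) were -0.10, -0.14, -0.07, -0.49 and -0.30, below 0 like the main ones. On log2(TPM + 1) with a filter they were 0.06, 0.06, 0.06, -0.26 and -0.14. TPM has no correction for the share of mitochondrial ribosomal RNA; whether that share accounts for the shift was not tested. Trp53 was also above 0 without untreated tumour 2 (0.039) and without vorinostat tumour 3 (0.019), and over settings that left out 1 library it ran from -0.21 to 0.039. In the settings run on counts the other 8 tested members kept their direction. No length range separated with the effective length either. Ppm1d, with as few as 32 reads, and Eda2r, with at most 10, are limited by depth.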
